A study of Mus musculus with 8 samples.

Results

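The macrophage genes described here are Laptm5, Csf1r, Ptprc, Aif1, Cd68, C1qa, C1qb, C1qc, Mrc1 and Lyz2. They were chosen by name, and all 10 were found by Ensembl gene ID among the 29639 genes of the mRNA table. RNA came from whole mouse embryos at embryonic day 12.5. The mutant line carries 3 polyadenylation cassettes, which stop transcription, in the promoter of Gtl2 (Meg3), a gene of the imprinted Dlk1-Dio3 domain, inserted with Easi-CRISPR. The groups were embryos with the insertion on the paternal copy (PKI), on the maternal copy (MKI) or on both copies (HOMO), and wild-type embryos (WT) without it. The labels list 2 libraries per genotype, but the deposited tables give each genotype a single column. No spread between embryos can be estimated, every difference is between single columns, and no test between genotypes could be run.

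Macrophages of the midgestation embryo descend from yolk sac and fetal liver progenitors and settle in every organ, where they engulf dying cells and debris. Their survival depends on signals through the receptor encoded by Csf1r, and the transcription factor PU.1, encoded by Spi1, directs much of their gene programme. The C1q chains, which start the classical complement pathway and tag material for uptake, are made mostly by macrophages. In bulk RNA from whole embryos, fewer macrophages and less RNA per macrophage cannot be told apart.

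All 10 genes had values above 0 in all 4 columns, but at low levels. In WT their FPKM, fragments per kilobase of transcript scaled to the depth of the column, lay between percentiles 0.377 and 32.1 of the 13279 genes that reached 1 FPKM in at least 2 columns. Of the 10, 8 passed that filter, and Ptprc and Aif1 did not. By the mean FPKM over the 4 columns the order of levels was C1qb (5.23), Mrc1 (4.45), Lyz2 (4.10), Laptm5 (4.03), Csf1r (3.58), C1qa (2.71), C1qc (2.13), Cd68 (1.76), Aif1 (0.572) and Ptprc (0.540). The ranges of neighbours in this order overlapped, except between Cd68 and Aif1.

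Some facts of the whole tables bear on these values. The targeted Meg3 was not analysed here, but the microRNAs of the domain, which normally come from the maternal copy, took 12.4% of the reads of the microRNA table in PKI, 0.407% of them in MKI and 0.424% of them in HOMO, against 13.7% of them in WT. Over the same 13279 genes, which are no independent replicates, the log2 columns had a Pearson's r of 0.864 to 0.882 for pairs with MKI and 0.961 to 0.975 for the other pairs. Kdm5d, Ddx3y, Eif2s3y and Uty, all Y-linked, lay between 7.12 and 29.7 FPKM in the knock-in columns and were listed at 0 in WT, so genotype and the sex of the embryos cannot be told apart in the comparisons with WT. The design text gives day 12.5 for all embryos, while the titles of the knock-in samples give slightly later days. The depth behind the FPKM values is unknown.

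On the deposited scale MKI was the lowest column for 9 of the 10 macrophage genes, and HOMO, which carries the maternal insertion as well, was the highest for 8. The share of all genes with MKI lowest or HOMO highest was not counted. Over all genes the median of MKI minus WT was -0.11 on the log2 scale, and 19.1% were 2-fold lower. The 10 values summed to 30.8 FPKM in PKI, 18.8 FPKM in MKI and 36.5 FPKM in HOMO, against 30.2 FPKM in WT. The difference in MKI was uneven. In FPKM, C1qa, C1qc, Cd68 (42.8% of WT) and Csf1r (47.3% of WT) were more than 2-fold below WT. Mrc1, Lyz2 and Ptprc lay close to it.

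**Figure D1:**
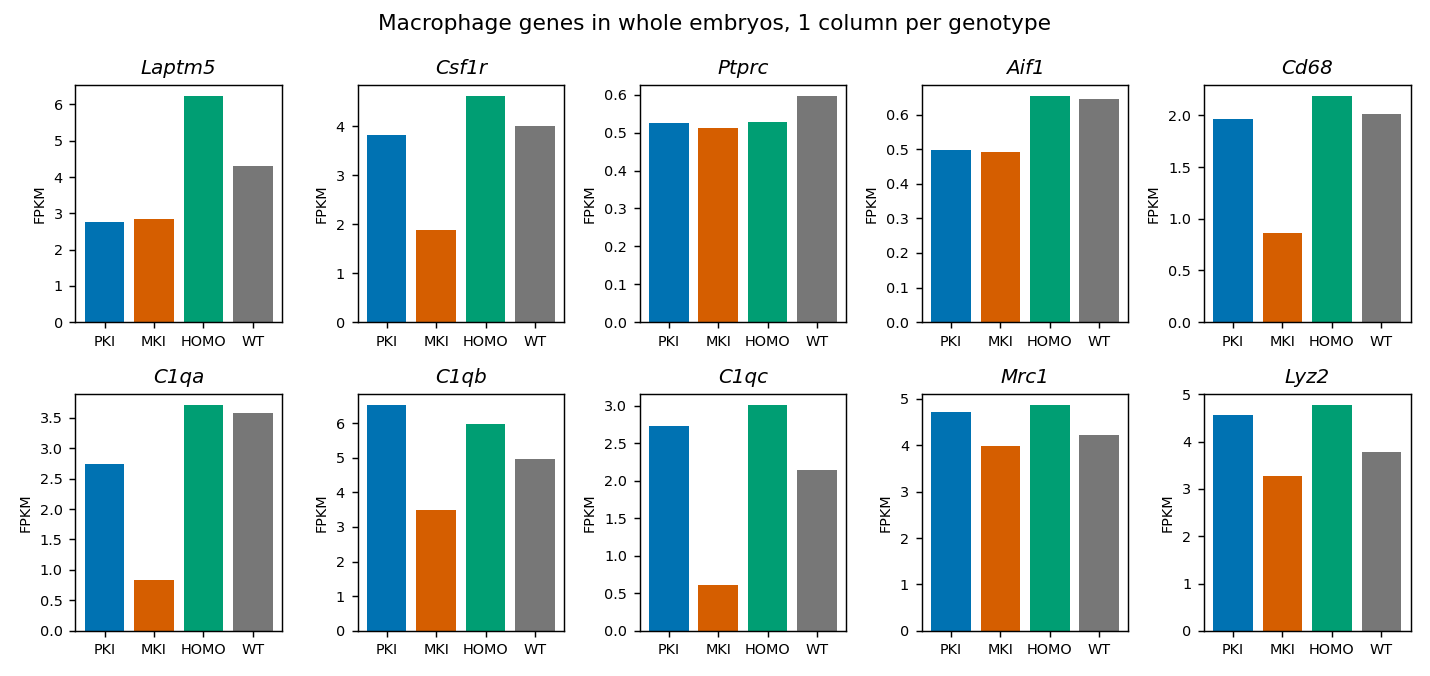
Level of each macrophage gene in FPKM (vertical axes, each from 0) in the PKI, MKI, HOMO and WT columns, 1 bar per column and no error bars because there is 1 column per genotype. MKI is the lowest bar in every panel except Laptm5, where PKI stood at 2.76 FPKM and MKI at 2.84 FPKM.

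The complement genes C1qa, C1qb and C1qc encode the A, B and C chains that assemble together into C1q. They lie side by side on chromosome 4 within 18719 bases (GRCm38), C1qb at 136880126 to 136886200, C1qc at 136889801 to 136892936 and C1qa at 136895916 to 136898844. C1qa stood at 2.73 FPKM in PKI, 0.837 FPKM in MKI and 3.71 FPKM in HOMO, against 3.57 FPKM in WT. C1qc was at 2.74 FPKM in PKI, 0.607 FPKM in MKI and 3.01 FPKM in HOMO, against 2.15 FPKM in WT. For both genes the MKI column stood apart, and the other 3 columns lay within 1.5-fold of each other. On the log2(FPKM + 0.5) scale, which is used for every difference here and understates folds of low genes, MKI minus WT was -1.61 for C1qa and -1.26 for C1qc. C1qb, the most abundant of the 3, was at 6.52 FPKM in PKI, 3.49 FPKM in MKI and 5.98 FPKM in HOMO, against 4.95 FPKM in WT, a difference of -0.45 between MKI and WT.

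The chains therefore did not keep the same proportions. C1qb was 2.39 times the FPKM of C1qa in PKI, 4.18 times in MKI and 1.61 times in HOMO, against 1.39 times in WT. Relative to C1qc it was 2.38 times in PKI, 5.76 times in MKI and 1.98 times in HOMO, against 2.30 times in WT. A scaling factor common to a whole column cancels in these ratios, which show unequal differences between the chains and not which chain differed.

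The promoter windows of C1qc and C1qb are printed to set these neighbouring genes beside Cd68, which was also low in MKI, and Mrc1, which was close to WT there. Each runs from 250 bases before to 50 bases after the RefSeq start, 5′ to 3′ on the strand of the gene. Capitals mark GAGGAA, the core of the PU.1 motif, or TTCCTC, the same letters on the opposite strand. C1qc lies at chr4:136892865-136893164 on the minus strand, C1qb at chr4:136886151-136886450 on the minus strand, Cd68 at chr11:69666121-69666420 on the minus strand and Mrc1 at chr2:14229164-14229463 on the plus strand (RefSeq, GRCm38.p6).
C1qc: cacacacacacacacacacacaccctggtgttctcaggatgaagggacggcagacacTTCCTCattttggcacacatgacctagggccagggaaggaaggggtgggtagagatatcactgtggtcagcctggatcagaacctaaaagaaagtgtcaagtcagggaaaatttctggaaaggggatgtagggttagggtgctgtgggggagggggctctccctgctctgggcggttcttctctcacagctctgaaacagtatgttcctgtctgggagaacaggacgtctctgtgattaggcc
C1qb: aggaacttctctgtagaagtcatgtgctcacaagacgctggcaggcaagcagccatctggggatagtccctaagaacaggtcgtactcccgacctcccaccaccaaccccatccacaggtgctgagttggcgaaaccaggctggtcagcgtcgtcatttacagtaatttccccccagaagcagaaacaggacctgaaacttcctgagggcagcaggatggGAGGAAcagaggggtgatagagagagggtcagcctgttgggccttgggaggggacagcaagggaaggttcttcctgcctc
Cd68: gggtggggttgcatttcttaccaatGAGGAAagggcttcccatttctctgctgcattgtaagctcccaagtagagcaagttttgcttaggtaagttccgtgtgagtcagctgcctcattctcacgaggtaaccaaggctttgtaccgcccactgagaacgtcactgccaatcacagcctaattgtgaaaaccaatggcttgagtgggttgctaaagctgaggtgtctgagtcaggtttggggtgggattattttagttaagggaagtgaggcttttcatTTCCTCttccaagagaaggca
Mrc1: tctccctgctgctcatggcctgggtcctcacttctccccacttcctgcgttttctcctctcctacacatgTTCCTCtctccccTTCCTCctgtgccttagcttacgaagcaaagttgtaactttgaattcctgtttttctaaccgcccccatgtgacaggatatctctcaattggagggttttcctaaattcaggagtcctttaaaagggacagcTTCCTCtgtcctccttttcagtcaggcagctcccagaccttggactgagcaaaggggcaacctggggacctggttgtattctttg

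Counted from the start, where the first transcribed base is 1, the match began at -193 in C1qc and at -30 in C1qb, at -225 and 30 in Cd68, and at -180, -167 and -35 in Mrc1. Windows on chromosome 18, where Csf1r lies, were left out for the macrophage genes but not for the counts over all windows. C1qa had no window. The search covered 9 windows for 8 of the 10 macrophage genes, 2 of them for Ptprc. GAGGAA or its reverse complement was found in windows of 7 of the 8 genes, all except Lyz2, and in 28.3% of all 32851 windows of the same length. The AP-1 motif TGANTCA, which reads the same on both strands, was found in Cd68 alone among the 8, at -149 and -24, and in 7.81% of all windows. These matches describe letters in a window and do not show binding. Spi1 itself stayed below the filter, at 0.728 FPKM in PKI, 0.677 FPKM in MKI and 0.846 FPKM in HOMO, against 0.910 FPKM in WT.

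Among the receptors, Csf1r (chromosome 18, 61105572 to 61131139), the receptor for the growth factors Csf1 and Il34, was at 3.81 FPKM in PKI, 1.89 FPKM in MKI and 4.61 FPKM in HOMO, against 3.99 FPKM in WT. MKI was again the only low column, at 47.3% of the WT value and -0.91 on the log2 scale. Mrc1 (chromosome 2, 14229414 to 14332023), the mannose receptor that takes up glycoproteins, was almost level, at 4.72 FPKM in PKI, 3.99 FPKM in MKI and 4.87 FPKM in HOMO, against 4.23 FPKM in WT. The FPKM of Mrc1 was 2.11 times that of Csf1r in MKI and between 1.06 and 1.24 times in the other columns. Some endothelial cells also express Mrc1. All 5 endothelial markers listed (Pecam1, Cdh5, Kdr, Tek and Emcn) were expressed, and summed to 30.2 FPKM in PKI, 50.5 FPKM in MKI and 51.0 FPKM in HOMO, against 44.4 FPKM in WT. Their part in the level of Mrc1 was not tested.

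Ptprc (chromosome 1, 138062859 to 138175756) encodes CD45, the phosphatase on nearly all white blood cells. It was flat, with 0.527 FPKM in PKI, 0.511 FPKM in MKI and 0.527 FPKM in HOMO, against 0.596 FPKM in WT.

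Intracellular proteins, most of them lysosomal, make up the next group. Cd68 (chromosome 11, 69664213 to 69666170), a heavily glycosylated membrane protein of macrophage lysosomes, was at 1.96 FPKM in PKI, 0.862 FPKM in MKI and 2.19 FPKM in HOMO, against 2.01 FPKM in WT, so that MKI held 42.8% of WT (-0.88 on the log2 scale). Laptm5 (chromosome 4, 130912890 to 130936148), a lysosomal membrane protein of blood cells, had another pattern, with 2.76 FPKM in PKI, 2.84 FPKM in MKI and 6.23 FPKM in HOMO, against 4.29 FPKM in WT. It was low in both single knock-in columns and highest in HOMO, with log2 differences from WT of -0.56, -0.52 and 0.49 in PKI, MKI and HOMO. Lyz2 (chromosome 10, 117277541 to 117282272), the lysozyme of macrophages and granulocytes, was at 4.56 FPKM in PKI, 3.27 FPKM in MKI and 4.77 FPKM in HOMO, against 3.79 FPKM in WT. Its value is uncertain because the neighbouring Lyz1 is a near copy, although Lyz1 was listed at 0.104 FPKM or less in every column. Aif1 (chromosome 17, 35170986 to 35176083), the calcium-binding protein used as the microglial marker Iba1, was low throughout, at 0.497 FPKM in PKI, 0.491 FPKM in MKI and 0.654 FPKM in HOMO, against 0.645 FPKM in WT.

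In the comparison of PKI with WT, which asks what goes with an insertion on the paternal copy, no macrophage gene passed 2-fold, and 2.15% of all genes did. The differences of the 10 genes ran from -0.56 for Laptm5 to 0.37 for C1qb, with 6 below 0 and 4 above. The median of the 8 genes past the filter was 0.06, against -0.07 over all genes. Over all 10 genes the median was -0.04, and Csf1r (-0.06) and Cd68 (-0.03) changed sign under quantile normalization and under scaling by the median of ratios.

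Against WT, MKI was lower for all 10 genes, from -1.61 for C1qa to -0.08 for Mrc1, and 2 of the 8 past the filter, C1qa and C1qc, were 2-fold lower. Of all genes 20.3% passed 2-fold in MKI and 19.1% were 2-fold lower, so calls of this kind were common across the table. The median of the 8 genes past the filter was -0.70, against -0.11 over all genes. For all 10 genes the median was -0.48. Across the other pseudocounts, filters and scalings the median of the macrophage genes lay between -0.81 and -0.26. Mrc1 moved above WT under quantile normalization (0.34) and the median of ratios (0.04), and Lyz2 under quantile normalization (0.23).

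HOMO was above WT for 9 of the 10 genes and just below for Ptprc (-0.09). The share of all genes with the same sign was not counted for this or any other single comparison. The differences reached 0.49 in Laptm5 and 0.41 in C1qc, with a median of 0.22 over the 8 genes past the filter, against -0.06 over all genes. No macrophage gene passed 2-fold, and 1.45% of all genes did.

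**Figure D2:**
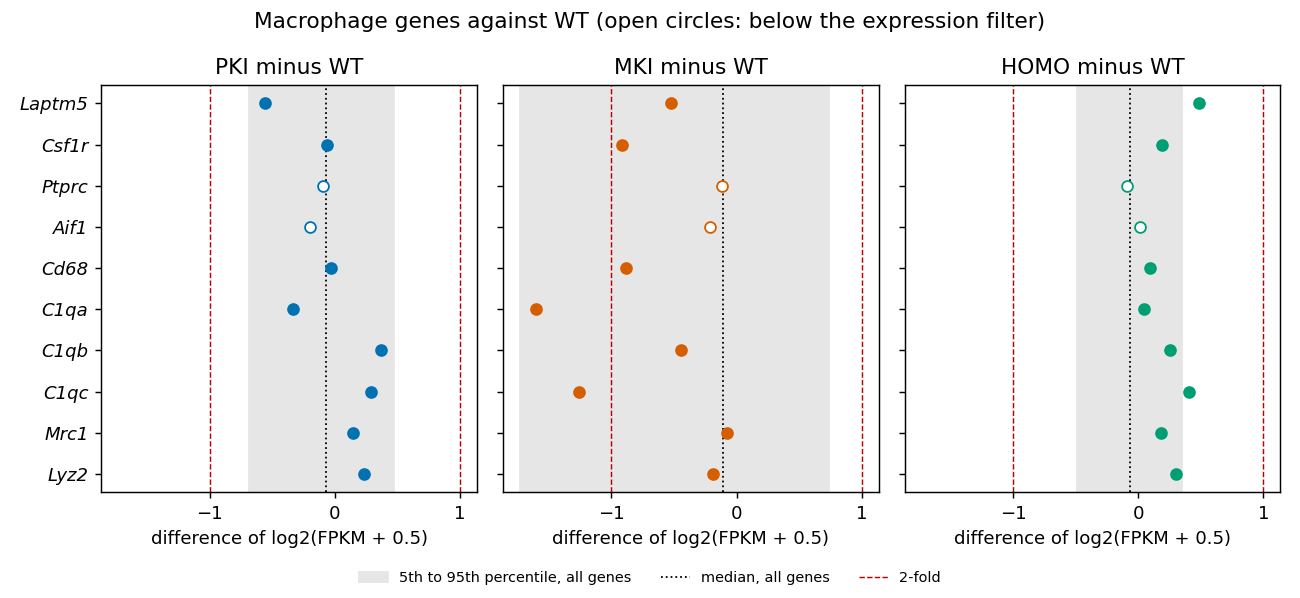
Difference of log2(FPKM + 0.5) from WT (horizontal axis) for each macrophage gene in PKI, MKI and HOMO, 1 point per gene, with the 5th to 95th percentile and the median of all 13279 genes and dashed lines at 2-fold. In MKI all points lie at or left of -0.08, inside a wide band of all genes, and in HOMO Laptm5 (0.49) and C1qc (0.41) lie right of the band.

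The comparisons with WT share the WT column, and those with MKI share the MKI column. Set against MKI, HOMO was higher for all 10 genes, and 4 were 2-fold higher, C1qc (1.67), C1qa (1.65), Csf1r (1.10) and Laptm5 (1.01), beside 19.7% of all genes that were 2-fold higher and 23.3% past 2-fold either way. Ptprc (0.02) was just below 0 under the median of ratios, and Mrc1 (0.26) was at -0.07 under quantile normalization. Set against PKI, HOMO differed little except in Laptm5 (1.05), the 1 macrophage gene past 2-fold where 1.55% of all genes were 2-fold higher and 2.87% passed either way. MKI against PKI was lowest in C1qc (-1.55) and C1qa (-1.27), 2 genes past 2-fold where 16.6% of all genes were 2-fold lower and 19.1% passed either way. Laptm5 was level in that comparison, at 0.04.

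The number of genes past 2-fold in MKI was high across the table, lower calls were the majority against WT under each scaling, and their share depended on it. Of the genes past 2-fold against WT, the higher ones made up 32.5% for PKI, 6.01% for MKI and 46.1% for HOMO. Under quantile normalization these shares were 49.6% for PKI, 30.6% for MKI and 56.5% for HOMO, and under the median of ratios 45.1% for PKI, 11.7% for MKI and 56.1% for HOMO. In HOMO against MKI the share was 84.4% on the deposited scale and 61.4% under quantile normalization, and in MKI against PKI 13.4% and 33.8%. Quantile normalization moved the median of all genes in MKI minus WT to 0.14, compared with -0.11 on the deposited scale.

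The difference between MKI and WT also went with gene span, the distance from start to end in RefSeq. Across 12333 genes, which are not independent replicates, Spearman's rho between span and the MKI minus WT difference was 0.342, compared with -0.279 for PKI minus WT and -0.154 for HOMO minus WT. The median MKI minus WT difference was -0.74 for 1364 genes under 5 kb, -0.24 for 7305 genes of 5 to 50 kb and 0.14 for 3664 genes of 50 kb or more. The macrophage genes under 5 kb, Cd68, C1qa, C1qc and Lyz2, lay between -1.61 and -0.19. Those of 5 to 50 kb, Laptm5, Csf1r, Aif1 and C1qb, lay between -0.91 and -0.21 and overlapped the shorter genes, and those of 50 kb or more, Ptprc and Mrc1, lay at -0.12 and -0.08. The part of gene span in the differences of the macrophage genes was not tested.

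**Figure D3:**
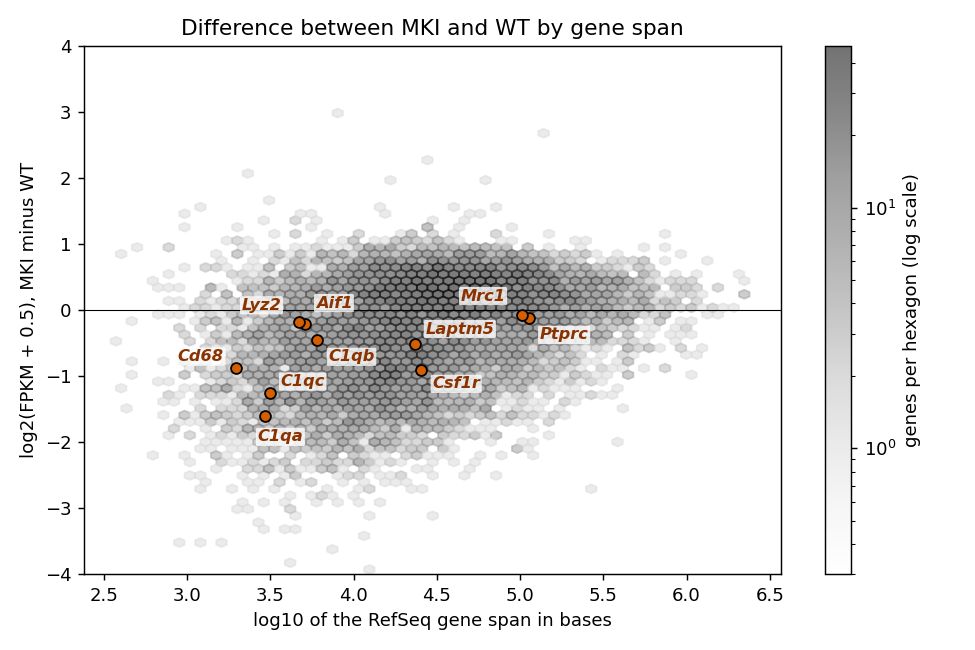
Difference of log2(FPKM + 0.5) between MKI and WT (vertical axis) against the log10 of the gene span in bases, with hexagons shaded by the number of genes and the 10 macrophage genes as labelled points. C1qa (-1.61) and C1qc (-1.26), both under 5 kb, lie lowest, but Lyz2, also under 5 kb, lies at -0.19, above Csf1r (-0.91) of 5 to 50 kb. The longest, Ptprc and Mrc1, lie near 0, and the cloud of all genes falls towards short spans. The 9 genes that differ by more than 4 either way are not drawn.

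Of 20 other surface and secreted genes of macrophages, 11 passed the filter, and in MKI 2 of the 11 were 2-fold below WT, near the 19.1% of all genes that were. These were Pf4, a chemokine of platelets and fetal macrophages, at 4.78 FPKM in PKI, 3.53 FPKM in MKI and 14.1 FPKM in HOMO, against 11.4 FPKM in WT, and Tyrobp, a signalling adaptor, at 6.58 FPKM in PKI, 1.25 FPKM in MKI and 3.10 FPKM in HOMO, against 3.71 FPKM in WT. Pf4 was 2-fold lower in PKI as well. The F4/80 gene Adgre1 was almost level, with 1.83 FPKM in PKI, 1.96 FPKM in MKI and 2.10 FPKM in HOMO, against 2.11 FPKM in WT. The chemokine receptor gene Cx3cr1 stood at 2.21 FPKM in PKI, 1.33 FPKM in MKI and 2.61 FPKM in HOMO, against 2.20 FPKM in WT. Itgam and Cd163 stayed at 0.131 FPKM or less in all columns.

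Ligands of the receptor were measured next. Csf1 was at 2.20 FPKM in PKI, 1.03 FPKM in MKI and 2.58 FPKM in HOMO, against 2.84 FPKM in WT. Ligand and receptor were both lowest in MKI, and the share of all genes lowest there was not counted. Il34 stayed at 0.107 FPKM or less. Csf2 and Csf3 were listed at 0 in all columns. Csf2ra, the receptor chain for Csf2, was at 2.35 FPKM in PKI, 0.758 FPKM in MKI and 2.73 FPKM in HOMO, against 3.13 FPKM in WT. Csf1 and Csf2ra were 2-fold below WT in MKI, where 19.1% of all genes were.

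Of 12 myeloid transcription factors 8 passed the filter. In MKI Id3 (-2.28), Cebpa (-1.77) and Cebpb (-1.61) were 2-fold below WT, beside 19.1% of all genes. In PKI 1 factor was 2-fold lower, the lymphoid and blood regulator Ikzf1 at 1.17 FPKM, against 4.05 FPKM in WT.

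Of 13 complement genes other than C1q 8 passed the filter. In MKI none of the 8 was 2-fold away from WT, where 20.3% of all genes were, so a count of 0 is not far from the background, and their median was 0.22, against -0.11 over all genes. C3, the central complement protein and largely a liver product, was at 1.32 FPKM in PKI, 5.21 FPKM in MKI and 5.14 FPKM in HOMO, against 4.67 FPKM in WT. The 5 hepatocyte markers listed (Alb, Afp, Ahsg, Apoa1 and Ttr) summed to 199 FPKM in PKI, 1044 FPKM in MKI and 679 FPKM in HOMO, against 549 FPKM in WT, and all 5 were 2-fold lower in PKI. Their part in the level of C3 was not tested.

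The 18 lysosome genes past the filter, most of which all cells express, had a median of -0.15 in MKI, against -0.11 over all genes. Of the 18, 2 were 2-fold lower, Cd63 (-1.43) and Grn (-1.19), a smaller share than the 19.1% of all genes. Among 12 uptake receptors and bridging proteins past the filter the median in MKI was -0.94, against -0.11 over all genes, and 5 were 2-fold lower, beside 19.1% of all genes, led by Mfge8 (-1.72), a bridge to dying cells, Scarb1 (-1.57), Mrc2 (-1.51) and Stab1 (-1.40). Scarb1, a lipoprotein and scavenger receptor, was at 7.20 FPKM in PKI, 2.92 FPKM in MKI and 8.64 FPKM in HOMO, against 9.64 FPKM in WT. Several of these genes are expressed well beyond macrophages. Of the genes of both lists past the filter none passed 2-fold in PKI or HOMO against WT. Below the filter, the scavenger receptor gene Stab2 was at 4.24 FPKM in PKI, 0.387 FPKM in MKI and 0.497 FPKM in HOMO, against 0.631 FPKM in WT. Of 8 pan-leukocyte genes past the filter 3 were 2-fold lower in MKI, beside the same 19.1% of all genes, the oxidase subunit Cyba (-2.01), the actin regulator Coro1a (-1.88) and Was (-1.08), while Lcp1 and Arhgdib were above WT there, and none passed 2-fold in PKI or HOMO.

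**Figure D4:**
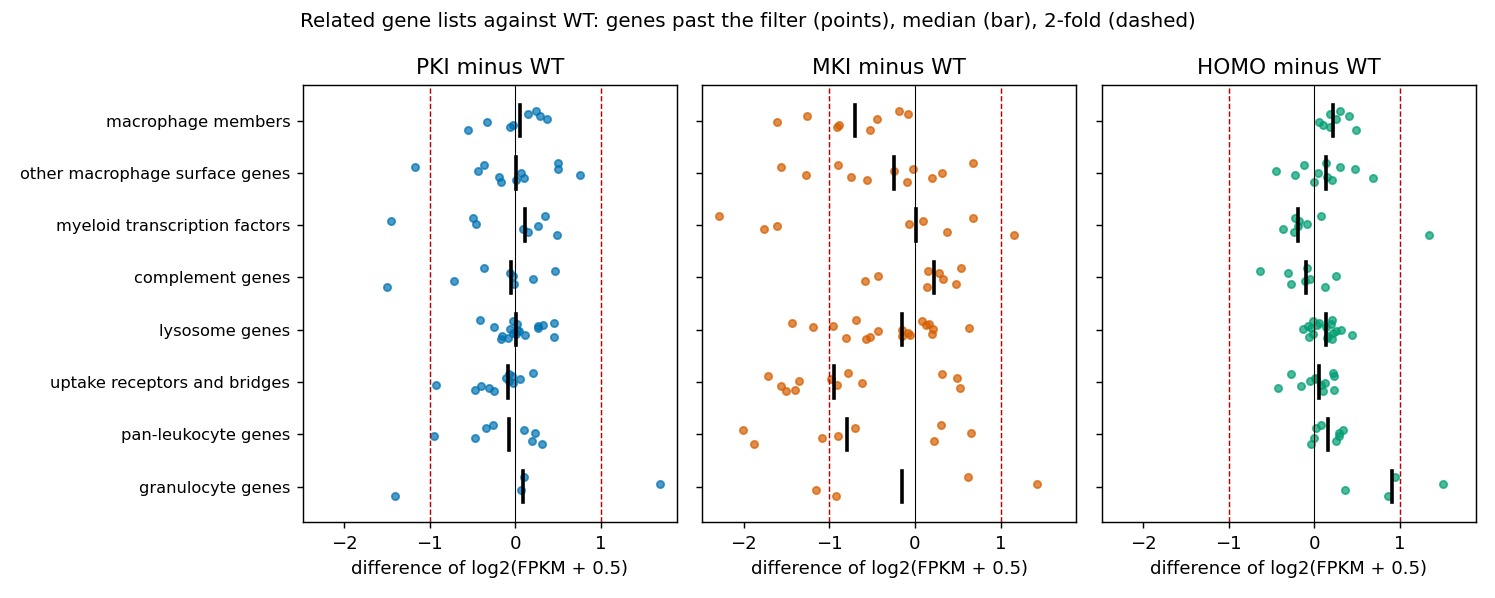
Difference of log2(FPKM + 0.5) from WT (horizontal axes) for genes past the filter in 8 lists, 1 point per gene, with black bars at list medians and dashed lines at 2-fold, for PKI, MKI and HOMO. The medians run from -0.09 to 0.12 in PKI, from -0.94 for uptake receptors and bridges to 0.22 for complement genes in MKI, and from -0.19 to 0.90 in HOMO.

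Genes of other white blood cells were low. Of 12 granulocyte genes 4 passed the filter, and the list summed to 6.53 FPKM in PKI, 5.81 FPKM in MKI and 12.0 FPKM in HOMO, against 4.83 FPKM in WT. Ly6g and Retnlg were listed at 0 in all columns. S100a8, a calcium-binding protein of granulocytes, was higher in every knock-in column, at 4.30 FPKM in PKI, 3.53 FPKM in MKI and 3.74 FPKM in HOMO, against 0.993 FPKM in WT. Mpo, the neutrophil peroxidase, was 2-fold below WT in PKI (-1.41), and Prtn3, a granule protease, 2-fold below WT in MKI (-1.16). The part of granulocytes in the level of Lyz2 was not tested. Of 10 lymphocyte genes 1 passed the filter, Lck, and Cd3e and Cd3g were listed at 0 in all columns. No gene of the dendritic cell and antigen presentation list passed, its highest being H2-Ab1 at 1.02 FPKM or less and Cd74 at 0.510 FPKM or less, and of 12 inflammatory mediators 2 did, Tgfb1 and Arg1, of which Tgfb1 was 2-fold lower in MKI (-1.05). The mast cell list had Kit alone past the filter, and Kit is also a gene of blood progenitors, with 5.13 FPKM in PKI, 7.48 FPKM in MKI and 8.08 FPKM in HOMO, against 7.17 FPKM in WT. Markers of neurons, mesenchyme, epidermis, muscle, endothelium, hepatocytes and red cells, 5 of each, all passed the filter. In PKI, besides the hepatocyte genes, Gata1, Klf1, Epor and Dcx were 2-fold below WT and Krt5, Trp63, Krt15 and Krt14 2-fold above it. In MKI, Epor, Slc4a1, Klf1, Tubb3, Col1a1, Krt14, Myog, Myod1, Des and Ahsg were 2-fold below WT and Alb 2-fold above it, and in HOMO no gene of these lists passed 2-fold. The part of such tissue differences in the levels of the macrophage genes was not tested.

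The genes whose pattern over the 4 columns was nearest to the median profile of the 8 macrophage genes past the filter were Rcn3, Stk40, Elovl1, Ankrd37 and Uqcrc1. Their Euclidean distances, after each gene's mean log2 level was taken away, were 0.03 to 0.04 among 4075 genes that varied at least as much. None of the 5 is in a list of blood cell genes used here.

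The microRNA table gave a second view of blood cells. Its values return whole reads, with totals of 10072670 reads in PKI, 8638401 reads in MKI and 8016848 reads in HOMO, against 8405962 reads in WT. MicroRNAs act by pairing of the seed, bases 2 to 8, which is given in capitals. miR-511 lies within Mrc1 at chromosome 2, 14261003 to 14261081, miR-142 is made in nearly all blood cells, miR-223 in myeloid cells, and miR-146a and miR-146b, which share a seed, are induced in activated white blood cells. Of 14 microRNAs listed, 12 were matched to a mature RefSeq sequence (GRCm38.p6), and 6 that bear on macrophages are shown.
mmu-miR-511-3p: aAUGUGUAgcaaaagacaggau
mmu-miR-142a-3p: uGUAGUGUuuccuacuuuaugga
mmu-miR-142a-5p: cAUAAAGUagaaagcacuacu
mmu-miR-223-3p: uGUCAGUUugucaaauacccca
mmu-miR-146a-5p: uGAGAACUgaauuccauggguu
mmu-miR-146b-5p: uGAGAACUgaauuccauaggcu

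miR-142a-3p was at 182 RPM, reads scaled to a total common to all columns, in PKI, 360.4 RPM in MKI and 353 RPM in HOMO, against 268 RPM in WT, with exact Poisson 95% intervals of 174 to 191, 348 to 373, 340.4 to 367 and 257 to 279 RPM in the same columns. The intervals of PKI lay below and those of MKI and HOMO above that of WT. All intervals on reads cover counting error only, and no spread between embryos is known. The domain microRNAs took 13.7% of reads in WT but 0.407% in MKI and 0.424% in HOMO. This leaves a larger share of RPM to the other microRNAs in MKI and HOMO. miR-142a-5p, from the other arm, was at 104 RPM in PKI, 113 RPM in MKI and 172 RPM in HOMO, against 97.0 RPM in WT, so the arms did not share the low value in PKI. miR-223-3p was at 21.4 RPM in PKI, 23.8 RPM in MKI and 26.1 RPM in HOMO, against 19.9 RPM in WT, or 108% (exact conditional 95% interval 87.8 to 133%), 120.0% (97.4 to 148%) and 131% (107 to 162%) of WT. The intervals of PKI and MKI included 100%. The difference in HOMO, 0.38 on the log2 scale, was as low as 0.18 under the other scalings, for which no interval was computed.

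miR-511-3p, the arm of miR-511 that was measured best, rested on 18 reads in PKI, 17 reads in MKI and 22 reads in HOMO, against 16 reads in WT. At this depth no difference was detectable, with intervals of 45.2 to 197%, 49.1 to 219% and 72.3 to 294% of WT. Its host gene Mrc1 was also close to WT in these columns. The other arm, miR-511-5p, had 6 reads in PKI, 0 reads in MKI and 5 reads in HOMO, against 13 reads in WT. The count of 0 in MKI had an exact 95% upper limit of 0.427 RPM. The intervals of miR-511-5p were 12.0 to 109% of WT in PKI, 0 to 31.9% in MKI and 11.3 to 121% in HOMO, for counting error only.

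miR-146a-5p was at 409 RPM in PKI, 464 RPM in MKI and 577 RPM in HOMO, against 342 RPM in WT, and miR-146b-5p at 644 RPM in PKI, 785 RPM in MKI and 657 RPM in HOMO, against 484 RPM in WT. Both were above WT in all 3 knock-in columns by more than counting error on the deposited scale. Under the other scalings they stayed above WT, with log2 differences as low as 0.24 for miR-146a-5p in MKI and for miR-146b-5p in HOMO. miR-155-5p was highest in MKI, at 50.5 RPM in PKI, 73.4 RPM in MKI and 50.02 RPM in HOMO, against 48.3 RPM in WT, as was miR-342-3p at 1311 RPM in PKI, 1706 RPM in MKI and 1135 RPM in HOMO, against 1092 RPM in WT. In HOMO, miR-155-5p and miR-342-3p lay within 0.06 of WT on the log2 scale and turned below it under both other scalings. The broadly expressed miR-21a-5p was at 12364 RPM in PKI, 15927 RPM in MKI and 17517 RPM in HOMO, against 12752 RPM in WT, and miR-223-5p was at 9.43 RPM in PKI, 10.7 RPM in MKI and 12.0 RPM in HOMO, against 11.7 RPM in WT. miR-150-5p of lymphocytes was at 8.24 RPM in PKI, 5.79 RPM in MKI and 32.6 RPM in HOMO, against 10.2 RPM in WT. It was the 1 listed microRNA past 2-fold in HOMO. In MKI 2 passed, miR-511-5p and the red cell microRNA miR-451a (1501 RPM, against 493 RPM in WT), and in PKI none. miR-144-3p, also of red cells, was at 34.1 RPM in PKI, 42.9 RPM in MKI and 84.9 RPM in HOMO, against 57.1 RPM in WT. Of 505 microRNAs at 10 RPM or more in at least 2 columns, 2.38% in PKI, 19.8% in MKI and 19.2% in HOMO passed 2-fold against WT, most of the last 2 shares being lower.

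**Figure D5:**
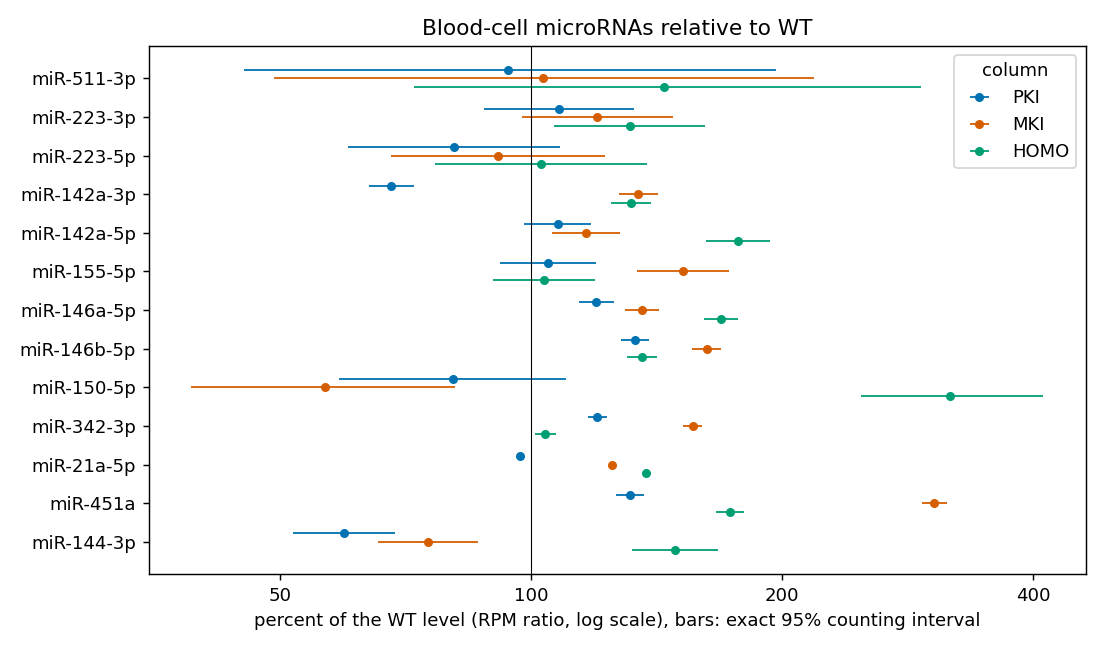
Level of 13 blood-cell microRNAs as a percent of WT (horizontal log axis) in the PKI, MKI and HOMO columns, 1 point per column, with bars for exact 95% counting intervals. miR-142a-3p is below 100% in PKI and above it in MKI and HOMO, and miR-511-3p has the widest intervals. miR-511-5p is left out because MKI had 0 reads.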

How the data were processed

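RNA of whole embryos was sequenced by the authors after oligo(dT) selection and dUTP marking of second strands, per the labels' protocols. The submitters' processing notes name StringTie 1.3.4d, HISAT2 2.0.4, cutadapt 1.9 and the build GRCm38, as well as edgeR and DESeq2, without a role. Whether a column combines libraries, and the annotation release, is not stated in what was used here. The header of the mRNA table names no unit. Its deposited values were read as FPKM from the authors' use of StringTie and from values that are not whole. The deposited microRNA values are RPM, as all columns have the same total, and 100% of values above 0 were whole multiples of 1 read within 0.02 of a read. The long non-coding table was not used, and some listed genes are not reported here.

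Of 29639 genes 22036 had Ensembl IDs and 22022 matched a symbol. Shared symbols were summed. Genes at 1 FPKM or more in at least 2 columns were kept (13279). With 1 column per group limma could not be fitted, so differences of log2(FPKM + 0.5) are described against the share of all genes past 2-fold, without p-values. All macrophage genes are named, and of each other list up to 4 genes past 2-fold with the largest differences, besides genes named after their values were seen. The genes and lists were chosen with earlier results of these data known. Intervals on reads are exact at 95%. Python 3.11.15, pandas 2.3.3, NumPy 2.4.6 and SciPy 1.17.1 were used, and steps were tested on simulated data. Alternatives were other pseudocounts, filters and scalings.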

Additional observations from a re-analysis of the deposited data

Results flagged for a closer look

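MKI minus WT and HOMO minus PKI, which share no column, both set embryos with the maternal insertion against embryos without it. MKI minus WT was negative and HOMO minus PKI positive for 9 of the 10 macrophage genes, all except C1qb, and for 7 of the 8 past the filter, where 34.3% of all genes had these signs. Some of these signs were unstable. Ptprc in HOMO minus PKI was 0.001 and turned to -0.01 under the median of ratios. In MKI minus WT, Mrc1 turned positive under quantile normalization and the median of ratios, and Lyz2 under quantile normalization. The contrasts differed by 1 or more on the log2 scale in 5 of the 8, where 18.2% of all genes did so with these signs. These were Laptm5, Csf1r, Cd68, C1qa and C1qc, with differences between the 2 contrasts of -1.57, -1.16, -1.01, -1.99 and -1.38. C1qa, for example, was -1.61 in MKI minus WT and 0.38 in HOMO minus PKI, and Laptm5 was -0.52 and 1.05. With 1 column per genotype these differences were not tested, and the MKI column, which enters all 5, stood apart from the others across the mRNA table.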

How the results depend on the processing

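No paired analysis was possible because the columns carry no replicate number, and no replicate could be left out because each genotype has 1 column. The count of macrophage genes 2-fold below WT in MKI was 2 on the deposited scale with the pseudocount of 0.5. It was 4 with a pseudocount of 0.1, where Csf1r and Cd68 joined. With a pseudocount of 1 it was 1, and under quantile normalization 1 (C1qa stayed in both). With a filter of 5 FPKM, which leaves C1qb alone, the count was 0. C1qc was at -0.97 with a pseudocount of 1 and at -0.72 under quantile normalization. For HOMO against MKI the 4 genes 2-fold higher became 2 with a pseudocount of 1, 2 under quantile normalization and 0 at 5 FPKM, and the median of 0.99 became 1.17 with a pseudocount of 0.1. For HOMO against PKI the 1 gene became 0 with a pseudocount of 1 and 0 at 5 FPKM, and for MKI against PKI the 2 genes became 1 under quantile normalization and 0 at 5 FPKM. No difference past 2-fold changed sign under these settings or the median of ratios. The smaller medians for PKI against WT (-0.04 without a filter) and HOMO against PKI (-0.12 at 5 FPKM) did. Laptm5 in HOMO against MKI was under 2-fold under the median of ratios (0.97). Genes past 2-fold in the whole table numbered 286 for PKI against WT, and 466 and 185 with pseudocounts of 0.1 and 1 and 127 at 5 FPKM. They numbered 193 for HOMO against WT, 345 without a filter and 85 at 5 FPKM, and 381 for HOMO against PKI, 184 at 5 FPKM. Over the 14 microRNAs the median for PKI against WT, 0.01, turned to -0.01 with reads outside the domain as the total, and miR-511-5p in HOMO then passed 2-fold (-1.02). Low levels limit the mRNA values, since most of the macrophage genes lie at 1 to 5 FPKM at unknown depth. The causes of these changes were not tested.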
